A study of Mus musculus with 30 samples.

Results

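Rab proteins are small GTPases that mark the membranes of the endocytic and secretory pathways. In the GTP-bound form a Rab sits on its membrane and binds effectors that move, tether or fuse vesicles; exchange factors (GEFs) load it with GTP, and GTPase-activating proteins (GAPs) end the cycle. In macrophages these proteins sort receptors such as TLR4, mature phagosomes and carry cytokines to the surface.

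The 40 genes described here are the protein-coding rows of the deposited count table whose mouse symbol is Rab, a number, an optional letter and an optional final number, other than Rab4a, and whose counts sum to 300 or more over the 30 libraries. The name matched 59 of the 32361 gene IDs in the table, and 18 of those 59 fell under the minimum of 300. Just inside it was Rab39 with 365 counts, and just outside were Rab3c with 264, Rab27a with 260 and Rab38 with 233. All 40 passed the filter on low counts and were tested. By their best-known site of action, 7 were placed at the early endosome, 8 on recycling and plasma membrane routes, 8 at the late endosome and lysosome, 11 at the endoplasmic reticulum (ER) and Golgi, 2 in regulated secretion, and 4 (Rab20, Rab23, Rab28, Rab40c) in none of these.

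The cells were bone marrow-derived macrophages, grown from the marrow of mice with L929 cell supernatant, which contains M-CSF. The strain named in the labels is C57BL/6J. The marrow came from Ticam2-/- mice (KO) or from WT mice. Ticam2 encodes TRAM, the adaptor that couples endosomal TLR4 to TRIF. KO and WT cells were each given lipopolysaccharide (LPS, a TLR4 ligand) at 10 ng/mL for 2 h or 6 h, lipoteichoic acid (LTA, a TLR2 ligand) at 100 ng/mL for 2 h or 6 h, or no treatment, which makes 10 groups of 3 libraries. Each replicate was the cells of 1 animal, whose age and sex the labels do not give, and their harvest text names the 6 h time alone. The Ticam2 deletion is the only allele named, and WT cells carry none.

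Library totals were 10641070 to 13521660 counts for the untreated and 6 h cells. The 2 h libraries, a separate set with no untreated library, were shallower, at 1334784 to 2658329. Ticam2 had 5 to 26 counts in each untreated or 6 h KO library and 120 to 260 in each matching WT library, and 1 to 14 in KO against 15 to 28 in WT libraries at 2 h. With TMM scaling (explained below) its mean at 2 h was 3.16 CPM with LPS and 2.77 with LTA in KO cells. The WT means at 2 h were 11.4 and 10.1 CPM. Untreated cells had 0.625 CPM in KO and 10.1 in WT. At 6 h KO cells had 1.57 CPM with LPS and 1.13 with LTA, against 21.8 and 25.7 in WT cells. The KO level was thus a larger part of the WT level at 2 h, and why was not tested. Macrophage markers were present throughout (Adgre1 643 to 916 CPM with total-count scaling). Mertk, also a macrophage marker, was low, at 1.83 to 11.6 CPM in the untreated and 6 h libraries and 1.81 to 8.98 at 2 h. Markers of neutrophils, B cells, T cells and dendritic cells stayed at or below 13.7 (S100a8), and Ly6g and Cd3e at or near 0. The library sets differed in other markers: the 5 erythroid genes were high in every untreated and 6 h library (Hbb-bs 2095 to 3012) and at or near 0 at 2 h (Hbb-bs 0), and Alb (38.3 to 82.3) and Fn1 (130.5 to 232) were high at 2 h, against 0 and 0.405 to 1.72 in the untreated and 6 h libraries. Ttr, like Alb a liver marker, ran the other way, at 0 at 2 h and 19.7 to 28.6 in the untreated and 6 h libraries. A comparison of 2 h with untreated cells is therefore also a comparison of library sets, and these cannot be told apart.

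Levels are given as CPM, a gene's counts in each 1000000 counts of the library, after edgeR's TMM scaling, which sets the typical gene equal between libraries. The alternative is to scale by total counts alone. The choice matters in WT cells at 6 h, where the median log2 fold change of all 15119 genes tested was -0.66 for LPS and -0.58 for LTA with total counts, against 0.03 and 0.01 with TMM. In KO cells at 6 h the total-count median was -0.19 for LPS and -0.18 for LTA. The 40 Rab genes together made up 0.398% to 0.403% of all counts in WT cells after 6 h of LPS and 0.408% to 0.411% in untreated WT cells, so their share of the library was slightly smaller. With TMM scaling their summed level was 5732 CPM after LPS and 3621 CPM in untreated WT cells. Values below use TMM unless total counts are named.

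Among untreated cells the family was led by housekeeping members. Per kilobase of exon, Rab11a (recycling endosome) came first in untreated WT cells with 100.6 CPM per kb, followed by Rab7 (late endosome to lysosome fusion) with 87.8, Rab2a (ER to Golgi) with 66.9 and Rab8b (exocytic carriers) with 65.4. After 6 h of LPS the leader in WT cells was Rab32, a Rab of lysosome-related organelles and mitochondria, with 213 CPM per kb, ahead of Rab11a with 138 and Rab10 with 136. Rab20 moved up to the fifth place with 131 CPM per kb. At the low end, Rab39 and Rab23 stayed under 1 CPM per kb in both groups.

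Before any stimulus, KO and WT cells differed in few Rab genes. In untreated KO cells 1 of 40 members was higher and 6 were lower than in untreated WT cells (edgeR adjusted p under 0.05), where 5.97% and 7.47% of all genes were called. Rab32 had 95, 96.5 and 92.8 CPM in KO and 147, 145 and 148 CPM in WT cells, a log2 fold change of -0.63 ± 0.04 (± SE; edgeR adjusted p = 4.1e-18). Rab20, a Rab of phagosomes and of hypoxia- and interferon-treated cells, had 13.9, 12.6 and 11.7 CPM in KO and 19.1, 19.3 and 20.3 CPM in WT cells (-0.62 ± 0.08, edgeR adjusted p = 4.3e-08). For both genes all 3 KO libraries lay below all 3 WT libraries. Rab6a, which acts at the Golgi, was lower by a smaller amount (-0.23 ± 0.04, edgeR adjusted p = 2.9e-05). The remaining calls, Rab5c, Rab18 and Rab10 lower and Rab40c higher, were at most 0.24 in size. Each of these 4 calls was lost when 1 library was left out: Rab5c without KO replicate 2 (-0.14, edgeR adjusted p = 0.06), Rab10 without KO replicate 1 or 2 or WT replicate 1 or 2, Rab18 without KO replicate 1 or 3 or WT replicate 1 or 2, and Rab40c without any KO replicate or WT replicate 1 or 2, which leaves 0 members higher. Rab10 was also not called with total counts. Fewer cells of a type and less RNA per cell cannot be told apart in these bulk samples.

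After 6 h, most Rab genes changed, and with TMM scaling more were higher than lower, an order that total counts turned round in all 4 responses. In KO cells LPS raised 19 and lowered 11 of 40 members and LTA raised 17 and lowered 14. In WT cells LPS raised 27 and lowered 11 and LTA raised 24 and lowered 11. Over all genes the shares called higher and lower were 25.7% and 26.6% for LPS in KO cells, 25.7% and 26.5% for LTA in KO cells, 36.6% and 36.1% for LPS in WT cells, and 35.4% and 35.9% for LTA in WT cells. The members' own shares higher were 47.5% and 42.5% in KO cells and 67.5% and 60% in WT cells, above those backgrounds, while their shares lower, 27.5% to 35%, were below the background in WT cells. The median member changed by 0.12 with LPS and 0.07 with LTA in KO cells, and by 0.48 and 0.38 in WT cells, on the log2 scale. With total counts the WT counts became 10 higher and 25 lower for LPS and 8 higher and 27 lower for LTA. In each, 15 members turned from higher to a fold change below 0. In KO cells the counts became 12 and 17 for LPS and 11 and 19 for LTA. The median of all genes was then itself -0.66 for LPS and -0.58 for LTA in WT cells, and -0.19 and -0.18 in KO cells. Shares of all genes called with total counts are not given here, so these member counts have no background beside them. Without KO untreated replicate 3, LTA lowered 9 members in KO cells.

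**Figure D1:**
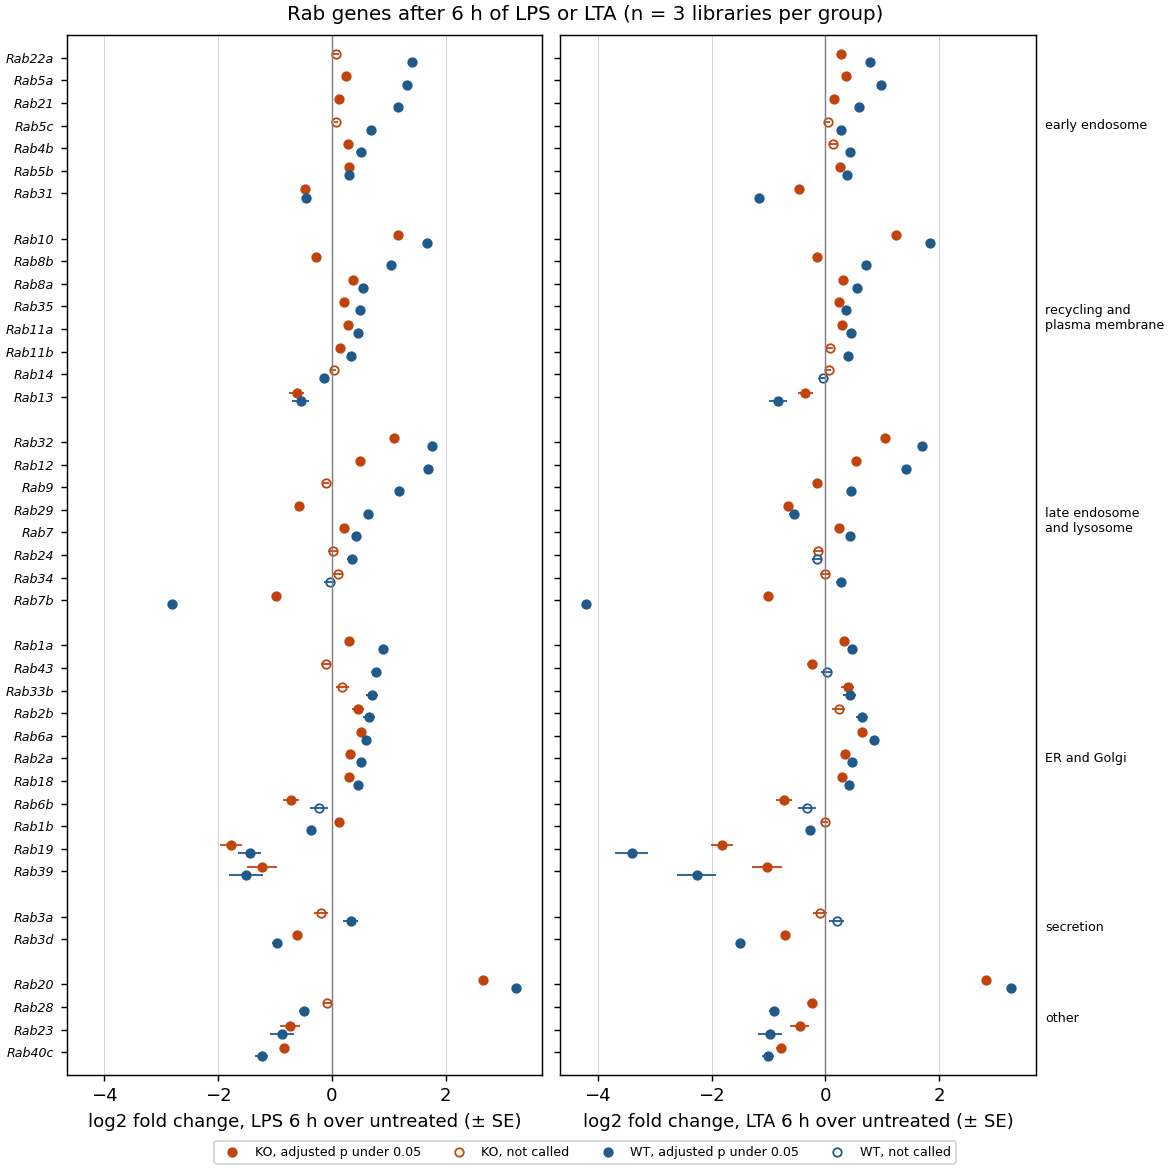
Log2 fold change of each of the 40 Rab genes after 6 h of LPS (left) or LTA (right) over untreated cells, in KO and WT cells, with its SE; genes run down the page by site of action, and filled points passed the test. Rab20 lies farthest right in all 4 responses and Rab7b farthest left in WT cells. With total counts instead of TMM the points move left, farther in WT than in KO cells. With each ligand 15 of the WT members called higher then fall left of 0.

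A smaller set rose whichever way the libraries were scaled. With both scalings, 10 members were called higher in WT cells after LPS (Rab1a, Rab5a, Rab8b, Rab9, Rab10, Rab12, Rab20, Rab21, Rab22a and Rab32) and 11 were called lower. Rab10, Rab12, Rab20 and Rab32 were also called higher with both scalings after LTA in WT cells and after either ligand in KO cells. Here and below, shares of all genes called with total counts or with both scalings are not given. Such counts have no background beside them.

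Rab20 rose most. It lies on chromosome 8, 11453518 to 11478710, minus strand (GRCm38; ENSMUSG00000031504). It had 77.3, 76.9 and 84.6 CPM after LPS in KO cells, against 13.9, 12.6 and 11.7 CPM in untreated KO cells (2.65 ± 0.07, edgeR adjusted p = 2.6e-38). In WT cells it had 181, 186 and 182 CPM after LPS and 19.1, 19.3 and 20.3 CPM untreated (3.23 ± 0.06, edgeR adjusted p = 1.1e-45). The treated and untreated libraries were far apart in both genotypes, and the treated KO libraries lay between the untreated and the treated WT libraries. LTA gave 88.6, 94.8 and 84.3 CPM in KO cells (2.81) and 197, 184 and 179.9 CPM in WT cells (3.26), close to LPS. Its exons share 356 bases with E230013L22Rik on the other strand, a gene with 393 counts against 18543 for Rab20.

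The bases upstream of Rab20 are shown because it is the member that rose most. The RefSeq promoter (GRCm38.p6, chr8:11478641-11478890, minus strand, the 250 bases before the RefSeq start, written 5′ to 3′) has in capitals a GC box, GGGCGGG, the site of Sp-family factors, found 100 bases before that start. The gene span given above, from GENCODE, reaches to 11478710, which lies inside this stretch. The end of the stretch is thus inside the gene by that span, and the distance depends on the start used.
Rab20: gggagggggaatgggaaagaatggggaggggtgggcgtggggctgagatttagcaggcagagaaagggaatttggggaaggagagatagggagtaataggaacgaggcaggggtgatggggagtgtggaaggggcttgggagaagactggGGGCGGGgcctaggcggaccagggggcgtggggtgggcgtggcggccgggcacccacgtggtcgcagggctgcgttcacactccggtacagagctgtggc
A GC box on either strand lies in a promoter of 19 of the 37 members that had a promoter entry. It lies in 23.4% of all 32851 promoters of this length, a share per promoter and not per gene. No match to the NF-kappaB consensus, the interferon element core (GAAA, 2 bases, GAAA) or the AP-1 site TGANTCA lies in this stretch, which says only that those letters are not in this window. Rab18, Rab2a and Rab7b had no entry.

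Rab32, Rab10 and Rab12 followed. Rab32 (chromosome 10, 10545002 to 10558265, minus strand, GRCm38) recruits factors to lysosome-related organelles and to phagosomes. It had 202, 203 and 203 CPM after LPS in KO cells, against 95, 96.5 and 92.8 CPM untreated (1.10 ± 0.04, edgeR adjusted p = 2.7e-30). The WT libraries had 493, 512 and 487 CPM after LPS, against 147, 145 and 148 CPM untreated (1.76 ± 0.04, edgeR adjusted p = 1.3e-41). The 3 libraries of each group lay within a few percent of each other, and no groups overlapped. Rab10 (chromosome 12, 3247428 to 3309969, minus strand), known in macrophages for carrying TLR4 to the plasma membrane, had 308, 303 and 301 CPM after LPS in KO cells (1.17 ± 0.04) and 474, 498 and 458 CPM in WT cells (1.68 ± 0.04). Its untreated levels were 135, 133 and 137 CPM in KO and 149.9, 153 and 143 CPM in WT cells. It overlaps Rab10os by 143 bases on the other strand, and Rab10os held 9674 counts against 65393 for Rab10. Rab12 (chromosome 17, 66494512 to 66519729, minus strand), which directs transferrin receptor and other cargo to lysosomes, had 66.4, 62.6 and 68.7 CPM after LPS in KO cells, against 46.9, 47.7 and 46.1 CPM untreated (0.49 ± 0.06). Its WT libraries held 158, 151 and 146 CPM after LPS, against 46, 47.6 and 47.4 CPM untreated (1.69 ± 0.05). Untreated KO and WT libraries overlapped, and after LPS all WT libraries were far above all KO libraries.

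**Figure D2:**
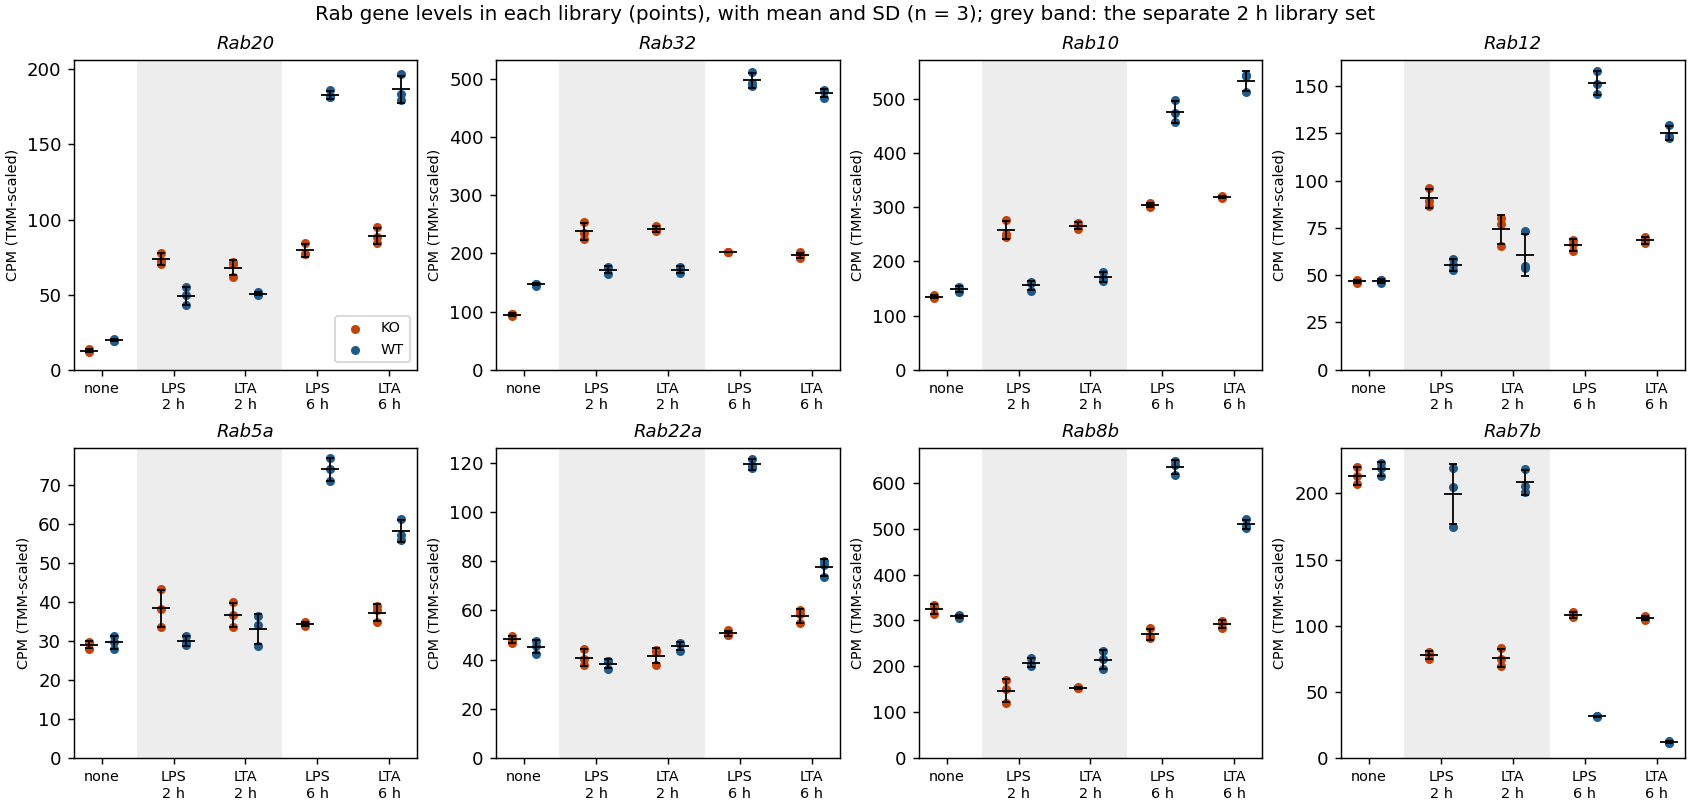
TMM-scaled CPM of 8 Rab genes in every library, with group mean and SD, KO left of WT in each condition; the grey band holds the separate 2 h library set. Rab20, Rab32, Rab10 and Rab12 are higher in KO than in WT at 2 h and lower at 6 h, and Rab7b shows the opposite order; at 6 h these directions hold with both scalings, and at 2 h all hold except Rab12 with LTA, which is not called with total counts.

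Early endosome genes changed little in KO cells and more in WT cells. Of 7 members, 4 rose and 1 fell in KO cells after LPS (median 0.13), and 6 rose and 1 fell in WT cells (median 0.70); with total counts 3 of the 6 WT rises were called, in Rab5a, Rab21 and Rab22a. Rab22a (chromosome 2, 173659760 to 173707343, plus strand), which feeds the MHC class I recycling route, had 52, 50 and 50.1 CPM after LPS in KO cells, against 49.6, 48 and 46.9 CPM untreated, with no call (0.07, edgeR adjusted p = 0.25, and -0.12 with total counts, also not called). In WT cells it had 122, 119 and 118 CPM after LPS, against 42.5, 47.7 and 45.4 CPM untreated (1.40 ± 0.05, edgeR adjusted p = 1.9e-31). The WT libraries with LPS stood apart from all 9 others, which overlapped or lay close together.

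Rab5a (chromosome 17, 53479234 to 53507680, plus strand), one of 3 Rab5 genes that organise early endosome fusion, had 34.5, 34.7 and 33.8 CPM after LPS in KO cells, against 27.9, 29.3 and 29.8 CPM untreated. In WT macrophages it had 73.9, 76.9 and 71 CPM after LPS, against 27.9, 29.7 and 31.1 CPM untreated (1.32 ± 0.06, edgeR adjusted p = 6.3e-27). The KO change was small (0.24 ± 0.06) and was not called with total counts (0.05). Its counts held a fraction in 93.3% of values, so they may be shared with other genes. Rab21 (chromosome 10, 115287084 to 115315594, minus strand), which follows integrins into early endosomes, had 138, 134 and 135 CPM after LPS in KO cells and 291, 302 and 289 CPM in WT cells. Its untreated libraries held 124, 126 and 123 CPM in KO and 134, 132 and 127 CPM in WT cells, so that only the WT libraries with LPS were far from the rest. Its fold changes were 0.13 ± 0.05 in KO and 1.17 ± 0.04 in WT cells, of which the KO one turned to -0.07 with total counts. The other Rab5 genes moved less: Rab5b rose by 0.30 in KO and 0.30 in WT cells, and Rab5c by 0.70 in WT cells with no call in KO cells (0.07); with total counts the WT values became -0.40 and -0.0001, and Rab5c was called lower in KO cells (-0.12).

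The promoters of Rab5a and Rab21 are shown because they were the members that held the CLEAR core TCACGTGA, the lysosomal gene element bound by TFEB. This palindrome is in a promoter of 2 of 37 members. It is in 0.785% of all 32851 promoters, again a share per promoter and not per gene. Both sequences are the RefSeq 250 bases before the start (GRCm38.p6), 5′ to 3′, at chr17:53478984-53479233 on the plus strand for Rab5a and chr10:115315592-115315841 on the minus strand for Rab21. Capitals mark the CLEAR core, 96 bases before the start of Rab5a and 31 before that of Rab21, and in Rab5a also a GC box on the reverse strand.
Rab5a: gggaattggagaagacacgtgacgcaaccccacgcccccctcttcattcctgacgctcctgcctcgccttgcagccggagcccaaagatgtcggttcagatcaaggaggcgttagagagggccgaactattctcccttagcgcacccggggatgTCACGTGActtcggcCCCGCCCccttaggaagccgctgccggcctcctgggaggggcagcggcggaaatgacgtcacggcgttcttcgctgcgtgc
Rab21: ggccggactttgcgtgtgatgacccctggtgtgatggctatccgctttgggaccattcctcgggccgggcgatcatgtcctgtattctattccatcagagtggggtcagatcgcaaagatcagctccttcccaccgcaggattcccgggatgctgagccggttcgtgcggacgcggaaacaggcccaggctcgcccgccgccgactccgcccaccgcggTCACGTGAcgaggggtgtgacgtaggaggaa
A match is a run of letters and not a measured site, and no binding was measured here.

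Rab31 went against the other early endosome genes. This Rab of the trans-Golgi to endosome route (chromosome 17, 65651729 to 65772752, minus strand) had 122, 121 and 129 CPM after LPS in KO cells and 111, 130.2 and 123 CPM in WT cells, and 161, 173 and 183 CPM in untreated KO and 175, 167 and 155 CPM in untreated WT cells. It fell in both (-0.48 in KO and -0.45 in WT cells), and the difference between the falls was not called (-0.03, edgeR adjusted p = 0.8). With total counts the falls were -0.67 in KO and -1.15 in WT cells, and the difference was called (0.48). After LTA the fall was deeper in WT cells, a tested difference of 0.70 ± 0.08 (edgeR adjusted p = 3.2e-11), with 129.7, 124 and 121 CPM in KO and 69.3, 77.3 and 74.7 CPM in WT cells (-0.46 and -1.17).

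On recycling and plasma membrane routes, 5 of 8 members rose and 2 fell in KO cells after LPS, and 6 rose and 2 fell in WT cells, of which Rab10 and Rab8b were called higher with total counts. Rab8b (chromosome 9, 66843664 to 66919687, minus strand), a Rab of exocytic carriers, moved in opposite directions: 284, 261 and 265 CPM after LPS in KO cells, against 313, 330.1 and 333 CPM untreated (-0.27 ± 0.05, edgeR adjusted p = 1.9e-06). In WT cells it had 647, 639 and 619 CPM after LPS, against 306, 310.3 and 312 CPM untreated (1.04 ± 0.05, edgeR adjusted p = 3.0e-27). No group overlapped its partner, and both directions held with total counts (-0.46 and 0.34). Rab8a, Rab11a, Rab11b and Rab35 (exocytosis, slow and fast recycling) rose by 0.15 to 0.37 in KO cells and by 0.33 to 0.55 in WT cells; with total counts all 4 WT values and that of Rab11b in KO cells (-0.05) fell below 0. The Rab11b call in KO cells was lost without KO LPS replicate 2. Rab13, a junction and exocytosis Rab at 9.50 CPM or less in these libraries, fell in both genotypes (-0.61 in KO and -0.55 in WT cells). Rab14, which joins the Golgi and endosomes, was not called in KO cells (0.04; called lower with total counts, -0.16) and fell slightly in WT cells (-0.13), and its WT call was lost without WT LPS replicate 1, 2 or 3 (-0.10, -0.09 and -0.10).

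Late endosome and lysosome genes held the deepest fall. In KO cells 3 of 8 rose and 2 fell after LPS, and in WT cells 6 rose and 1 fell, of which Rab9, Rab12 and Rab32 were called higher with total counts. Rab7b, a late endosome and Golgi Rab that in cultured macrophage lines lowers TLR4 and TLR9 signalling, fell most of all 40 in WT cells. It lies on chromosome 1, 131688695 to 131715439, plus strand (GRCm38; ENSMUSG00000052688). Rab7b had 110.3, 106 and 108 CPM after LPS in KO cells, against 207, 220.3 and 213 CPM untreated (-0.98 ± 0.05, edgeR adjusted p = 5.8e-26). The WT libraries had 30.6, 31.3 and 31.9 CPM after LPS, against 223, 219.5 and 213 CPM untreated (-2.80 ± 0.06, edgeR adjusted p = 7.1e-44). The untreated genotypes overlapped, the treated KO libraries lay well below them, and the treated WT libraries lay lowest, with no overlap between treated and untreated libraries or between treated genotypes. With LTA the WT level was lower still, 108, 104 and 105 CPM in KO and 11.1, 12.7 and 11.5 CPM in WT cells (-1.01 ± 0.05 and -4.21 ± 0.07).

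Rab9 (chromosome X, 166457253 to 166479867, minus strand), which returns mannose 6-phosphate receptors to the Golgi, had 47.8, 52.4 and 55.5 CPM after LPS in KO cells, against 58.6, 53.5 and 56 CPM untreated, with no call (-0.11, edgeR adjusted p = 0.12). With total counts Rab9 was called lower in KO cells (-0.30). In WT cells it had 113, 117 and 121 CPM after LPS, against 51.9, 52.7 and 49.9 CPM untreated (1.18 ± 0.06, edgeR adjusted p = 6.9e-26). Rab29 (chromosome 1, 131867224 to 131872887, plus strand), a partner of the kinase LRRK2 at stressed lysosomes, had 21.7, 22.9 and 21.7 CPM after LPS in KO cells, against 36.1, 32.4 and 30.3 CPM untreated (-0.57 ± 0.07). In WT macrophages it had 47.6, 50.9 and 50.6 CPM after LPS, against 32.8, 31.6 and 31.8 CPM untreated (0.63 ± 0.06), and this rise turned to -0.06 with total counts while the KO fall remained (-0.77). Rab7 rose modestly in both genotypes (0.21 in KO and 0.43 in WT cells), but total counts gave 0.02 in KO and -0.27 in WT cells. Rab24 (autophagy) shares 1258 bases with Prelid1 on the other strand, which held 56554 counts against 5522, so its values are uncertain without the strand setting of the counting.

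In the ER and Golgi group 6 of 11 members rose and 3 fell in KO cells after LPS, and 7 rose and 3 fell in WT cells, of which Rab1a was called higher with total counts. Rab1a and Rab1b, which share the ER to Golgi step, parted in WT cells. Rab1a had 265, 270.4 and 264 CPM after LPS in KO and 399.9, 422 and 417 CPM in WT cells (0.31 in KO and 0.90 in WT cells, each over untreated cells), higher with both scalings. Rab1b had 143, 154 and 144 CPM in KO and 106, 109 and 109 CPM in WT cells (0.12 in KO and -0.37 in WT cells), where the small KO rise turned to -0.07 with total counts. Rab6a rose in both genotypes with LPS (0.52 in KO and 0.60 in WT cells) and with LTA (0.65 in KO and 0.85 in WT cells); with total counts the rise in WT cells with LPS turned to -0.10 and the other 3 stayed above 0. Rab2a (ER to Golgi) and Rab18 (lipid droplets) rose by 0.31 to 0.33 in KO cells and 0.47 to 0.51 in WT cells, and their WT values turned to -0.19 and -0.23. Rab19 and Rab39, both at a few CPM, fell in every 6 h response (Rab19 -1.77 in KO and -1.44 in WT cells with LPS, and -1.82 in KO and -3.40 in WT cells with LTA). Rab43 shares 4164 bases on the same strand with Gm45140, and Rab4b shares 1280 with Gm21983, so counts of these members may be split between 2 genes.

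Among the remaining genes, Rab3d (secretory granules) fell in both genotypes, -0.61 in KO and -0.97 in WT cells after LPS and -0.70 in KO and -1.49 in WT cells after LTA. Rab40c, a member whose SOCS box recruits a ubiquitin ligase, fell to 15.1, 14.1 and 13.1 CPM with LPS in KO cells, against 24.6, 24.4 and 26.1 CPM untreated, and to 7.2, 9.61 and 10.1 CPM in WT cells, against 21, 20.2 and 22.6 CPM untreated. Rab23 (ciliary hedgehog signalling) and Rab28 (photoreceptor and ciliary traffic) fell in WT cells (-0.88 and -0.49). In KO cells Rab23 fell (-0.73) and Rab28 was not called (-0.08), though Rab28 was called lower with total counts (-0.27).

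At 6 h, with TMM scaling, more Rab genes were lower than higher in KO cells, and total counts turned 10 of the lower ones with each ligand. With LPS 7 of 40 members were higher in KO and 24 lower, and with LTA 10 were higher and 19 lower, where 32.7% and 30.6% of all genes were called with LPS and 30.5% and 28% with LTA. The share of members lower in KO was 60% with LPS and 47.5% with LTA, and the median member differed by -0.28 and -0.19. With total counts the median of all genes stood at 0.54 with LPS and 0.44 with LTA, and 22 members were higher and 12 lower with LPS and 26 higher and 6 lower with LTA. Called with both scalings were 12 members lower with LPS (Rab1a, Rab5a, Rab5c, Rab8b, Rab9, Rab10, Rab12, Rab20, Rab21, Rab22a, Rab29 and Rab32) and 7 higher (Rab1b, Rab3d, Rab7b, Rab14, Rab28, Rab34 and Rab40c). With LTA, 6 were lower with both (Rab5a, Rab8b, Rab10, Rab12, Rab20 and Rab32) and 10 higher. The counts with total counts and with both scalings have no all-gene share beside them. Without WT LPS replicate 1, 4 members were higher in KO with LPS. Rab34 lost its call (0.20, edgeR adjusted p = 0.08), as did Rab14, which also lost it without WT LPS replicate 2 or 3 or KO LPS replicate 1.

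The largest deficit in KO cells with LPS was in Rab32 (-1.30 ± 0.04, edgeR adjusted p = 1.9e-35), whose library values are given above. Rab22a, Rab8b, Rab12, Rab20, Rab9, Rab29, Rab21 and Rab5a followed, at -1.24 to -1.11, and none of their KO libraries reached a WT library. With LTA Rab32 again led (-1.27 ± 0.04), then Rab20 (-1.07 ± 0.05) and Rab12 (-0.87 ± 0.05), while Rab29 was not called (-0.06, edgeR adjusted p = 0.55) but was called higher in KO with total counts (0.38). The largest excess in KO cells was in Rab7b, 1.79 ± 0.06 with LPS and 3.16 ± 0.07 with LTA.

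**Figure D3:**
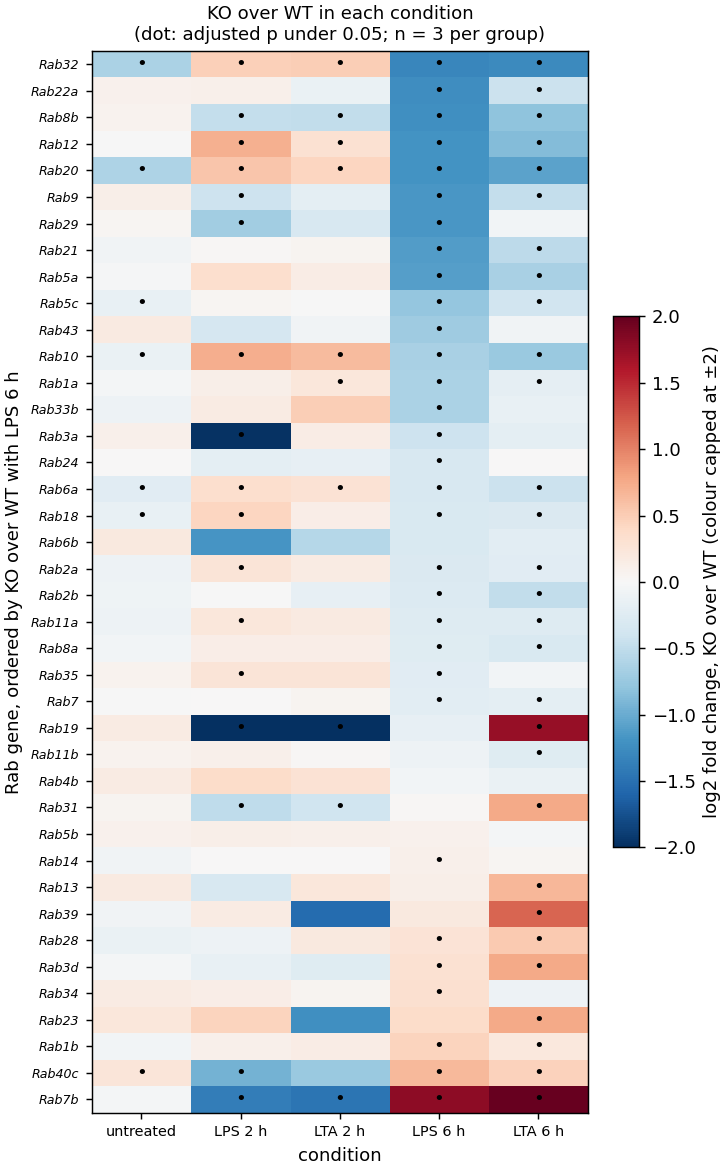
Log2 fold change of KO over WT for the 40 Rab genes in each condition (colour), ordered by the LPS 6 h column; a dot marks adjusted p under 0.05. Most genes are lower in KO at 6 h with LPS, and Rab10, Rab12, Rab20 and Rab32 are higher in KO at 2 h. With total counts 10 of the genes called lower in KO with LPS at 6 h and 10 with LTA turn to above 0.

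The change in response between genotypes was tested directly, as the KO response minus the WT response. With LPS 6 members had a higher and 24 a lower value in KO (all genes: 27% and 23.5%), and with LTA 7 and 18 (all genes: 24.8% and 20.1%). Total counts turned this balance round, to 19 higher and 9 lower with LPS and 24 and 5 with LTA. With each ligand 9 of the lower members turned to above 0. The median of all genes was then itself 0.52 with LPS and 0.45 with LTA. The differences largest in size below 0 with LPS were Rab22a (-1.33 ± 0.07), Rab8b (-1.31 ± 0.07), Rab9 (-1.29 ± 0.08), Rab29 (-1.21 ± 0.09) and Rab12 (-1.20 ± 0.08), each called with both scalings. Rab20 and Rab10 also differed (-0.58 and -0.51), but with total counts these were -0.08 and -0.01 and were not called. Rab7b stood at 1.82 ± 0.07 with LPS and 3.20 ± 0.08 with LTA. Without WT LPS replicate 1, 2 members were higher with LPS, and Rab28 (0.27), Rab3d (0.25) and Rab40c (0.22) were no longer called. Nor was Rab14 (0.13), which was also lost without WT LPS replicate 2 or 3, KO LPS replicate 1, KO untreated replicate 1 or WT untreated replicate 1.

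LPS and LTA, given at different doses, differed in many Rab genes in WT cells, and few differences were called in KO cells. In KO cells at 6 h 0 of 40 members were higher with LPS than with LTA and 1 was lower, where 1.34% and 1.32% of all genes were called, and 8 had an unadjusted p under 0.05. The 1 was Rab22a (-0.19), and it lost the call without KO LPS replicate 2 or 3 or KO LTA replicate 1 or 3; without KO LPS replicate 1, 2 were called lower, and DESeq2 called 1 higher and 3 lower. In WT cells at 6 h 17 were higher and 3 lower with LPS, where 17.9% and 14% of all genes were called. At 2 h in WT cells none of 40 was called (all genes: 1.1% and 0.0992%), 0 had an unadjusted p under 0.05 in edgeR, and DESeq2 called 0.

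Rab29 had 47.6, 50.9 and 50.6 CPM with LPS and 21.3, 22.5 and 21.5 CPM with LTA in WT cells at 6 h (1.19 ± 0.07, edgeR adjusted p = 3.0e-20). In KO cells it had 21.7, 22.9 and 21.7 CPM with LPS and 21.6, 20.1 and 21 CPM with LTA, close to the WT level with LTA. Rab7b also stood higher with LPS than with LTA in WT cells (1.41 ± 0.09), as did Rab19 (1.96 ± 0.39), Rab43 (0.76 ± 0.10), Rab9 (0.74 ± 0.06), Rab31 (0.72 ± 0.06), Rab22a (0.62 ± 0.05) and Rab21 (0.57 ± 0.04). Rab10, Rab6a and Rab34 were lower with LPS (-0.16, -0.25 and -0.31), and Rab34 lost its call without WT LPS replicate 1 or WT LTA replicate 1. The leading risers Rab20 and Rab32 were not called (-0.03 and 0.06), though with total counts Rab20 was called lower with LPS (-0.13) and Rab32 stood at -0.03, not called. Each called direction named here was the same with total counts.

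**Figure D4:**
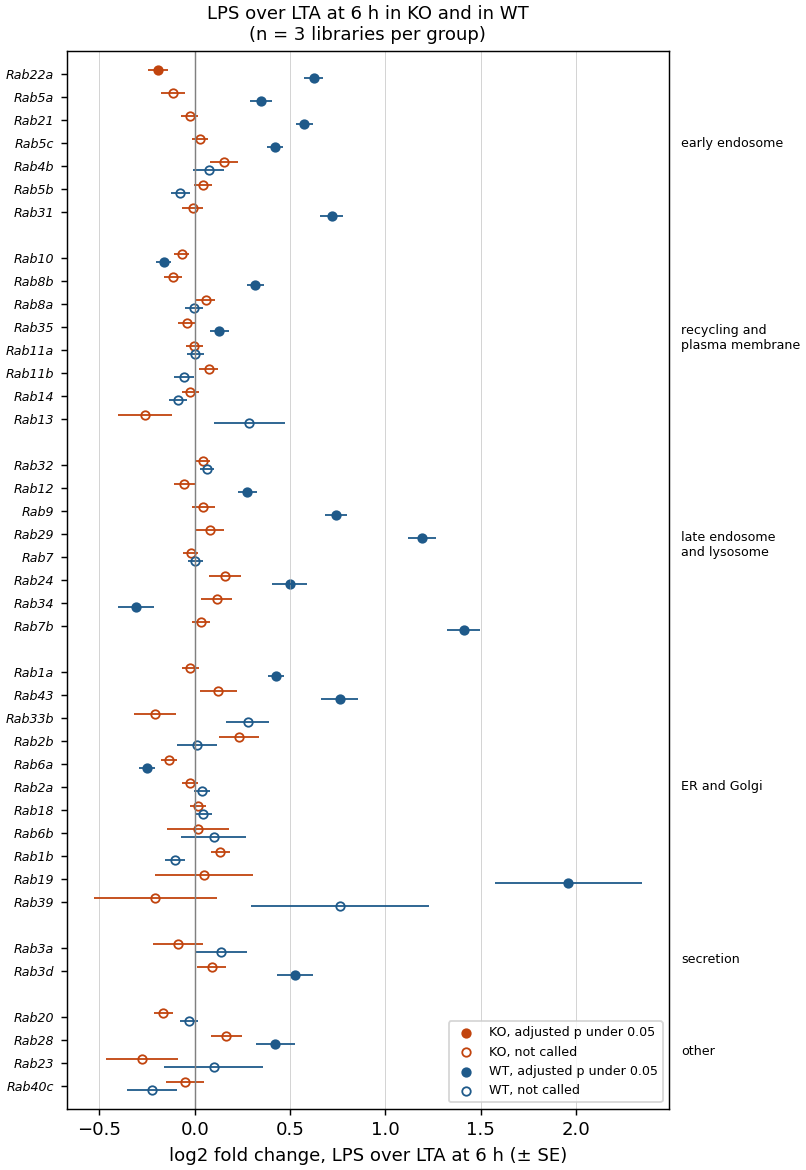
Log2 fold change of LPS over LTA at 6 h for the 40 Rab genes, KO above WT on each line, with its SE; filled points passed the test. The WT points spread to 1.96 and the KO points lie between -0.28 and 0.23; with total counts each called gene keeps its side of 0.

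At 2 h the order of the genotypes was reversed for the genes that rose most. With LPS 9 members were higher and 8 lower in KO than in WT cells, and with LTA 6 were higher and 4 lower, where 9.11% and 7.24% of all genes were called with LPS and 7.83% and 5.21% with LTA. Both groups of each comparison come from the 2 h set. Rab20 had 77.9, 70.1 and 72.3 CPM in KO and 43, 55.2 and 49.5 CPM in WT cells with LPS (0.56 ± 0.10, edgeR adjusted p = 2.8e-05). Rab10 had 251, 277 and 246 CPM in KO and 146, 159.9 and 161 CPM in WT cells (0.73 ± 0.06, edgeR adjusted p = 7.1e-15). Rab12 had 96.3, 89 and 86.8 CPM in KO and 55.3, 58.6 and 52.5 CPM in WT cells (0.71 ± 0.10). All 3 KO libraries lay above all 3 WT libraries for these genes and for Rab32 (0.48 ± 0.06), and each was called with both scalings. With LTA Rab10, Rab20 and Rab32 were again higher in KO (0.64, 0.43 and 0.49), while Rab12 overlapped between genotypes and lost its call (0.30) without KO LTA replicate 1 or 3, without WT LTA replicate 2 or 3, and with total counts.

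Rab7b ran the other way at 2 h. It had 77.9, 74.4 and 80.4 CPM in KO and 175, 219.6 and 205 CPM in WT cells with LPS (-1.38 ± 0.07, edgeR adjusted p = 7.6e-22). With LTA it had 74.4, 82.8 and 69.7 CPM in KO and 219, 206 and 201 CPM in WT cells (-1.46 ± 0.07). The WT libraries at 2 h were near the untreated level, and all KO libraries lay far below them. Rab8b (-0.48 and -0.49) and Rab31 (-0.50 and -0.39) were lower in KO with LPS and with LTA; Rab31 with LTA lost its call without WT LTA replicate 1 (-0.28, edgeR adjusted p = 0.1). Rab19 had 1, 0 and 1 counts in KO and 7, 9 and 7 counts in WT cells with LPS, too few for a firm fold. Without WT LPS replicate 3, 5 members were lower in KO with LPS.

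The difference between the times was tested as KO over WT at 6 h minus KO over WT at 2 h, a comparison added after the values had been seen. With LPS 6 members were higher and 20 lower by this measure, and with LTA 7 and 17, where 22% and 23.5% of all genes were called with LPS and 20.1% and 20.5% with LTA. Here too total counts turned the balance round, to 17 higher and 8 lower with LPS and 16 and 5 with LTA. The median of all genes was then itself 0.56 with LPS and 0.46 with LTA. Rab12 (-1.91 ± 0.11), Rab32 (-1.77 ± 0.07), Rab20 (-1.76 ± 0.11) and Rab10 (-1.38 ± 0.07) led downward with LPS, and Rab7b (3.17 ± 0.09) upward, each with both scalings. The set of libraries also differs between the times, in both genotypes. Time and library set therefore cannot be told apart in this comparison.

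Against untreated cells, the 2 h values mix treatment with library set. In KO cells 13 members were higher and 18 lower with LPS and 12 and 20 with LTA; in WT cells 8 and 18 with LPS and 8 and 16 with LTA. The shares of all genes higher and lower were 26.8% and 30.4% for LPS in KO cells, 26.3% and 29.7% for LTA in KO cells, 19.5% and 25.5% for LPS in WT cells, and 19% and 23.9% for LTA in WT cells. Rab20 led all 4 (2.52 and 2.42 in KO cells with LPS and LTA, 1.34 and 1.37 in WT cells), and its direction held with total counts. Without WT LTA replicate 1, 5 members were higher with LTA in WT cells. The part of the erythroid, Alb, Ttr and Fn1 differences between the sets in these values was not tested.

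**Figure D5:**
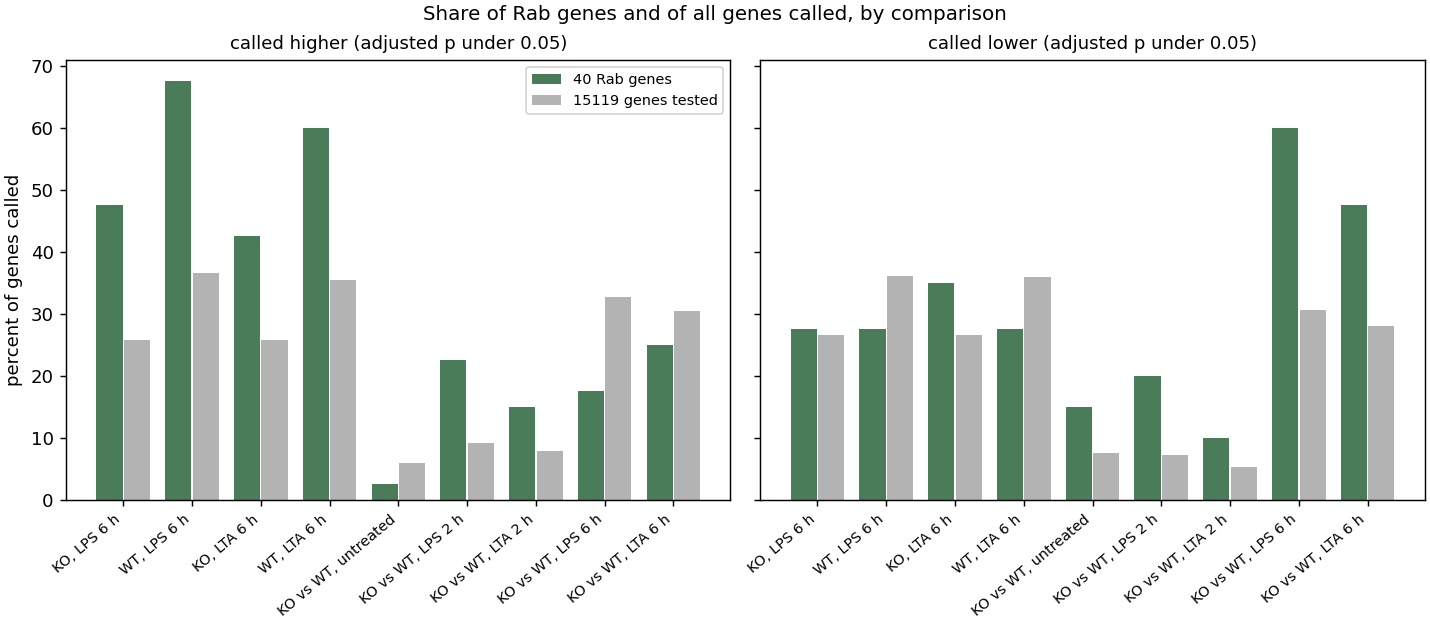
Percent of the 40 Rab genes and of all 15119 genes called higher (left) or lower (right) in each comparison, with TMM scaling. The Rab bars exceed the all-gene bars for higher calls after 6 h and for lower calls in KO against WT at 6 h. With total counts the Rab counts in these comparisons become 10 to 12 higher with LPS and 8 to 11 with LTA after 6 h, and 12 and 6 lower in KO. The all-gene shares with total counts are not shown.

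Ratios between related genes within a library do not depend on scaling. The ratio of Rab7b to Rab7 was 0.41, 0.407 and 0.405 in KO and 0.103, 0.101 and 0.101 in WT libraries after 6 h of LPS, against 0.898 to 0.967 in all untreated libraries. After LTA it was 0.394, 0.39 and 0.393 in KO and 0.0358, 0.0417 and 0.0379 in WT libraries. The ratio of Rab1a to Rab1b was 1.86, 1.76 and 1.83 in KO and 3.78, 3.89 and 3.82 in WT libraries after LPS, against 1.55 to 1.67 in all untreated ones. At 6 h the balance of both pairs thus moved in the same direction in each genotype and farther in WT cells, without overlap between genotypes. For Rab8b to Rab8a the genotypes parted: 2.09, 1.67 and 1.74 in KO and 4.06, 3.46 and 3.42 in WT libraries after LPS, against 2.67 to 2.97 in untreated KO and 2.54 to 2.61 in untreated WT libraries. The ratio of Rab5a to Rab5b was 0.375, 0.407 and 0.394 in KO libraries and 0.928, 0.916 and 0.843 in WT libraries after LPS, against 0.387 to 0.474 in untreated libraries. At 2 h with LPS the order differed. Rab7b to Rab7 was 0.238, 0.211 and 0.246 in KO and 0.503, 0.673 and 0.606 in WT libraries, lower in KO. Rab1a to Rab1b was 2.03, 1.97 and 2.42 in KO and 2.19, 2.53 and 1.79 in WT libraries, which overlapped. All are ratios of counts, each with 0.5 added, and are not corrected for gene length.

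Calls were also counted in lists of Rab regulators. Of 37 GAP genes (TBC domain proteins and the Rab3 GAP subunits) 35 were tested: in KO cells LPS raised 9 and lowered 12 (median log2 fold change -0.11), and in WT cells it raised 11 and lowered 22 (median -0.59). In KO over WT cells with LPS 23 were higher and 8 lower (median 0.59), and with total counts 27 were higher and 4 lower. Of the 39 GEF genes tested, LPS raised 12 and lowered 10 in KO cells (median -0.04), and raised 18 and lowered 11 in WT cells (median 0.14), where total counts gave 5 and 17 in KO and 8 and 23 in WT cells. In KO over WT cells with LPS 12 GEF genes were higher and 17 lower, and with total counts 24 and 11. Over all genes the median was 0.01 in KO and 0.03 in WT cells. With TMM, LPS raised 25.7% and lowered 26.6% of all genes in KO cells, and 36.6% and 36.1% in WT cells. In KO over WT cells with LPS 32.7% of all genes were higher and 30.6% lower.

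The regulators named next were taken from the called genes with the smallest p in their lists. These genes were therefore picked for strong changes, which do not describe their lists. Rabgef1, an exchange factor for Rab5, had 36.4 ± 3.17 CPM after LPS and 17.5 ± 0.984 CPM untreated in KO cells (1.05 ± 0.08; mean ± SD, n = 3 each). In WT cells it had 79.1 ± 5.35 CPM after LPS and 17.9 ± 1.97 CPM untreated (2.14 ± 0.07). Rin2, another Rab5 exchange factor, had 32.3 ± 2.83 CPM in KO and 153 ± 12.8 CPM in WT cells with LPS (-2.24 ± 0.07, edgeR adjusted p = 4.0e-33). The ligands differed as well: WT cells had 153 ± 12.8 CPM with LPS and 31 ± 2.44 CPM with LTA (2.30 ± 0.07), against 36.5 ± 1.97 CPM untreated. Rab3il1, an exchange factor for Rab8 that also binds Rab3, had 37.9 ± 1.96 CPM in KO and 6.72 ± 0.226 CPM in WT cells with LPS (2.49 ± 0.10). Among GAPs, Tbc1d1 (Rab8 and Rab10) and Tbc1d13 (Rab35) were lower in KO than in WT cells with LPS, -1.73 ± 0.06 and -1.43 ± 0.05. All these directions were the same with total counts.

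Of 45 Rab effectors tested, LPS raised 11 and lowered 16 in KO cells and raised 18 and lowered 19 in WT cells (7 and 23, and 8 and 30, with total counts). The all-gene shares with TMM were 25.7% and 26.6% in KO cells and 36.6% and 36.1% in WT cells. The median effector changed by -0.12 in KO and 0.003 in WT cells. Rab11fip1, an effector of Rab11, had 57.4 ± 4.1 CPM after LPS and 10.8 ± 0.651 CPM untreated in KO cells (2.41 ± 0.07). The WT libraries had 407 ± 10.6 CPM after LPS and 12.3 ± 0.789 CPM untreated (5.05 ± 0.06), while Rab11a and Rab11b, its partners, rose by 0.46 and 0.33, which total counts turned to -0.24 and -0.36. Plekhm1, which links Rab7 to the HOPS tether at lysosomes, had 54.9 ± 1.71 CPM in KO and 12.1 ± 1.03 CPM in WT cells with LPS (2.18 ± 0.07, edgeR adjusted p = 1.7e-32).

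Of the 8 HOPS and CORVET tether genes, which act with Rab7 and Rab5, LPS raised 2 and lowered 4 in KO cells and raised 1 and lowered 4 in WT cells (0 and 6, and 0 and 8, with total counts). With LPS 5 were higher and 0 lower in KO than in WT cells, among them the CORVET subunits Tgfbrap1 (1.03 ± 0.11) and Vps8 (0.97 ± 0.13), and 8 were higher with total counts. Of the 12 membrane cycle genes (prenylation and related factors) LPS raised 4 and lowered 2 in KO cells and raised 5 and lowered 3 in WT cells (2 and 6, and 2 and 10, with total counts). For both lists, the all-gene shares with TMM were 25.7% and 26.6% in KO cells and 36.6% and 36.1% in WT cells. For KO over WT cells with LPS they were 32.7% higher and 30.6% lower.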

How the data were processed

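RNA-seq was deposited as 1 table of gene counts for 30 libraries. The submitters' processing notes name STAR 2.7.11, Subread 2.1.1 with featureCounts, fastp 0.24.0 and SAMtools 1.22.1, with the builds GRCm38 and mm10, but not their order; whether counting used strand, and from which annotation, is not known here. The authors deposited an expected count per gene and library: 25.19% of the values above 0 have a fraction, and all were rounded before testing. Of 32361 IDs, 26314 were named from GENCODE M21; unnamed IDs held 1.314% to 3.87% of counts. Rab5a, Rab1a and Rab8b had fractions in 93.3% of values, and exons of 16 members overlap another gene, 12 of them on the opposite strand.

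Genes passing edgeR's filter by group (minimum count 10, total 15) were fitted in 1 model of all 10 groups (R 4.3.3, edgeR 4.0.16, quasi-likelihood, TMM, 20 residual degrees of freedom), with Benjamini-Hochberg adjustment over 15119 genes in each comparison and a threshold of 0.05. The SE is the log2 fold change divided by the square root of F. Tested alternatives were RLE factors, total counts, DESeq2 1.42.0, no filter, each library set or the compared groups alone, a replicate block, and each library left out. The fit was also run on simulated data with balanced changes up and down in 1 group. Those data were not built with a shift of the typical gene like that in WT cells at 6 h. They therefore cannot decide between TMM and total counts. The named genes were the 5 called members with the largest change each way and the preset genes, if called. Of the 17 preset genes, Rab27a and Rab38 fell under the count minimum and are not members. Others named by role were chosen after their values were seen, as was the 6 h minus 2 h comparison. Members and lists were chosen with earlier results of these data known. Replicate numbers mark animals within a genotype, per the labels. The replicate block was these animals, except in the KO over WT comparisons, 6 h minus 2 h included. There it was the replicate number shared by KO and WT libraries, so it was not a block of animals. Same-numbered libraries of 1 genotype and set had correlated deviations in 2 of 24 pairs (over 0.1; median 0.0145). Same-numbered KO and WT libraries of 1 set did in 5 of 39 pairs, up to 0.446 (LPS at 6 h, replicate 1) and 0.32 (LPS at 6 h, replicate 3); the labels name no link between KO and WT animals beyond the number. The spread between libraries sets the p-values; 2 h libraries are shallower, so low genes are less precise there.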

Additional observations from a re-analysis of the deposited data

Results flagged for a closer look

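A response that differed between genotypes, by edgeR's interaction term, was found at 6 h for 21 named members with LPS and 16 with LTA. With LPS the KO minus WT difference in response, on the log2 scale, was -1.33 for Rab22a, -1.31 for Rab8b, -1.29 for Rab9, -1.21 for Rab29, -1.20 for Rab12, -1.08 for Rab5a, -0.67 for Rab32, -0.63 for Rab5c, -0.58 for Rab20 and -0.51 for Rab10; with total counts the last 3 were -0.12, -0.0762 and -0.005 and were not called. It was -0.29 for Rab35, -0.21 for Rab7, -0.18 for Rab11b, -0.18 for Rab8a and -0.17 for Rab11a, all 5 of which were above 0 with total counts. It was above 0 for Rab7b (1.82), Rab1b (0.49), Rab28 (0.41), Rab40c (0.40), Rab3d (0.35) and Rab14 (0.17).

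With LTA the difference was -0.88 for Rab8b, -0.87 for Rab12, -0.64 for Rab32, -0.62 for Rab5a, -0.60 for Rab10 and -0.44 for Rab20, of which Rab20 was not called with total counts (-0.0277). It was -0.31 for Rab11b, -0.24 for Rab8a, -0.23 for Rab5c, -0.19 for Rab7 and -0.16 for Rab11a, and these 5 were above 0 with total counts. It was 3.20 for Rab7b, 1.58 for Rab19, 1.24 for Rab39, 0.79 for Rab3d and 0.70 for Rab31.

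The difference between KO and WT cells also differed between times, in a comparison added after the values had been seen. Time and library set cannot be told apart in it. With LPS, 6 h minus 2 h was -1.91 for Rab12, -1.77 for Rab32, -1.76 for Rab20, -1.44 for Rab5a, -1.38 for Rab10, -0.81 for Rab5c and -0.76 for Rab8b, of which Rab8b was not called with total counts (-0.15). It was -0.49 for Rab35, -0.49 for Rab11a, -0.38 for Rab8a and -0.22 for Rab7, with these 4 above 0 with total counts. It was 3.30 for Rab19, 3.17 for Rab7b, 1.59 for Rab40c, 0.53 for Rab31 and 0.46 for Rab3d. With LTA it was -1.77 for Rab32, -1.49 for Rab20, -1.38 for Rab10, -1.17 for Rab12 and -0.79 for Rab5a, of which Rab5a was not called with total counts (-0.29). It was -0.44 for Rab8a, -0.44 for Rab11a, -0.38 for Rab5c, -0.33 for Rab35, -0.32 for Rab8b, -0.26 for Rab11b and -0.24 for Rab7, with these 7 above 0 with total counts. It was 4.62 for Rab7b, 4.47 for Rab19, 2.704 for Rab39, 1.98 for Rab23, 1.21 for Rab40c and 1.16 for Rab31. Rab19, Rab39 and Rab23 rest on few counts at 2 h.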

How the results depend on the processing

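Total-count scaling changed most, and it also moved the median of all genes, as given above. It gave 10 members higher and 25 lower for LPS in WT cells, 8 and 27 for LTA in WT cells, 12 and 17 for LPS and 11 higher for LTA in KO cells, and 8 higher for LPS at 2 h in KO cells. For KO over WT it gave 22 higher and 12 lower with LPS at 6 h and 26 and 6 with LTA, for LPS over LTA 9 lower in WT and 3 lower in KO cells, for the genotype difference 19 and 9 with LPS and 24 and 5 with LTA, and for 6 h minus 2 h 17 and 8 with LPS and 16 and 5 with LTA. It turned 45 of 294 named results. In WT cells with LPS these were Rab11a -0.24, Rab11b -0.36, Rab35 -0.20, Rab5b -0.40, Rab5c -0.0001, Rab7 -0.27 and Rab8a -0.15, and with LTA Rab11a -0.14, Rab11b -0.21, Rab35 -0.23, Rab5b -0.23, Rab5c -0.32, Rab7 -0.18 and Rab8a -0.0501; in KO cells with LPS Rab11b -0.0464. For KO over WT at 6 h they were Rab11a 0.26, Rab35 0.29, Rab7 0.31 and Rab8a 0.28 with LPS, and Rab11a 0.17, Rab11b 0.20, Rab5c 0.05, Rab7 0.25 and Rab8a 0.14 with LTA. For the genotype difference they were Rab11a 0.33, Rab11b 0.32, Rab35 0.21, Rab7 0.29 and Rab8a 0.32 with LPS, and Rab11a 0.25, Rab11b 0.10, Rab5c 0.19, Rab7 0.23 and Rab8a 0.18 with LTA. For 6 h minus 2 h they were Rab11a 0.12, Rab35 0.12, Rab7 0.40 and Rab8a 0.23 with LPS, and Rab11a 0.0686, Rab11b 0.25, Rab35 0.18, Rab5c 0.13, Rab7 0.26, Rab8a 0.0665 and Rab8b 0.19 with LTA.

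For LPS over LTA at 6 h, DESeq2 called 1 member higher and 3 lower in KO cells, no filter and the compared groups alone called 0 lower there, and the compared groups alone called 5 lower in WT cells. No filter gave 5 higher for LPS at 2 h in WT cells. The cause was not tested. Leaving out 1 library gave 9 to 13 lower for LTA at 6 h in KO cells, 5 to 8 higher for LTA at 2 h in WT cells, 0 to 1 higher for KO over WT untreated, 4 to 7 higher for KO over WT with LPS at 6 h, 5 to 8 lower with LPS at 2 h, 0 to 2 lower for LPS over LTA in KO cells at 6 h, and 2 to 6 higher for the genotype difference with LPS. With the replicate block, LPS at 6 h called 27 members higher and 11 lower in WT cells, and KO over WT with LPS at 6 h called 7 and 24; no other count of members moved by over 1.5 times, and 2 named results were no longer called: Rab12 for KO over WT with LTA at 2 h (edgeR adjusted p = 0.053) and Rab11b for 6 h minus 2 h with LTA (0.061). Of the 294 named results, the number no longer called was 11 with DESeq2, 7 with RLE factors and 18 with no filter. With total counts 17 were no longer called, beside the 45 that turned. It was 9 with the compared groups alone (282 still called) and 3 with a library set alone (185 still called). Those settings did not cover all named results. Leaving out 1 library lost the call of 41 named results in at least 1 of the fits. At 2 h, depth limits the low genes: Rab3a had 1, 2 and 1 counts in KO and 4, 4 and 8 counts in WT libraries with LPS.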
